A study of Homo sapiens with 6 samples.

Results

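Rab GTPases are the small GTP-binding proteins that give each membrane compartment its identity. The members described here are the genes whose platform symbol is RAB followed by a number and an optional letter, together with RASEF, also called RAB45, and RAB29, also called RAB7L1. Effectors and regulators of Rabs were not counted as members. By this rule there were 58 Rab genes among 19775 genes, measured by 143 of the 41091 probe sets that name 1 gene. A further 11 probe sets name a Rab gene together with another gene and were not used, so RAB34, RAB6C and RAB6D, which are named only there, were not analysed here.

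The cells were of the NTERA2/D1 line, established from a human testicular teratocarcinoma and resembling embryonal carcinoma. Per the labels, the wells were transfected 24 h after plating and RNA was taken after 72 h of transfection, in the control group with a nonspecific scrambled siRNA and in the knockdown group with an siRNA to human VAMP7. Both groups were grown in the same serum-supplemented medium without phenol red, and each group held 3 arrays of 1 sample each. By title, both groups hold biological replicates 1 to 3, but the description fields give the number 1 to all 3 knockdown samples. The titles were followed here, and no label says whether the samples were separate cultures. The p-values below therefore describe only how far these samples scatter, and that scatter may be technical.

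A Rab switches between a GTP-bound form on a membrane and a GDP-bound form that is carried through the cytosol. Exchange factors load GTP, GTPase activating proteins end the active state, a prenyl group anchors the protein, and the GTP-bound form recruits effectors such as tethers, motors and adaptors that move a vesicle to its target. Membrane fusion at that target is then carried out by SNARE proteins. VAMP7, the protein targeted here, is a SNARE of late endosomes, lysosomes and some secretory vesicles. Its partner ANKRD27 (VARP) is an exchange factor for RAB21 and binds RAB32 and RAB38, which ties these 3 Rabs to VAMP7.

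The VAMP7 probe set, the check on the labels, read 2487, 2617 and 2741 intensity units in control and 136.8, 175.4 and 148.6 in knockdown, so that 5.87% of the control mean remained (log2 fold change -3.71, SE 0.11, limma adjusted p = 8.65e-05). The 6 arrays had median intensities between 58.8 and 67.5. Knockdown replicate 1 lay apart from the other 5 (its first principal component loading was 0.90). The value without it is given beside some of the results that it moved. Of 11 measured markers of embryonal carcinoma, 10 were at or above the median gene, NANOG, SOX2 and LIN28A among them, and ZFP42 was not. Among markers of other cells, 3 of 8 fibroblast, 2 of 7 trophoblast, 2 of 7 neuronal, 0 of 6 leukocyte and 3 of 6 endothelial genes were at or above it. Their summed intensities overlapped between the groups except for the endothelial list. That list ran from 3520 to 3725 in control and from 3980 to 4545 in knockdown. In it VWF, KDR and TEK were at or above the median gene, and PECAM1, CDH5 and ESAM were below. Bright genes weigh most in such sums, and VWF, with means of 1176 in control and 1596 in knockdown, made up most of the difference. Of the endothelial list 4 lay above 0 and 2, TEK and CDH5, below. VWF and ESAM were higher on all knockdown arrays, but ESAM was dim, with a mean of 34.3 intensity units. The embryonal list had 6 above and 5 below, with NANOG and GDF3 lower on all knockdown arrays. Among the other lists LUM, a fibroblast marker, was lower on all of them. Of all genes, 6.68% were higher and 6.29% lower on all knockdown arrays than on any control array. No marker passed the test, and the part of these lists in the Rab values was not tested.

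No Rab gene passed the threshold of an adjusted p under 0.05. Differences are given as log2 fold changes, knockdown minus control, on the log2(intensity + 50) scale, where 1 means doubling and where changes of dim genes are understated. They come from limma fitted over all 19775 genes with Benjamini-Hochberg adjustment, and in that fit 0.00506% of all genes were called, which is VAMP7 alone. Among the 58 Rabs 4 had an unadjusted p under 0.05, against 6.66% of all genes. RASEF and RAB6A were higher in knockdown (3.63% of all genes) and RAB35 and RAB26 lower (3.03% of all genes). For 8 Rabs the 3 knockdown arrays lay wholly beyond the 3 control arrays (13.8%), against 13.0% of all genes. Of these 6 lay above (6.68% of all genes) and 2 below (6.29% of all genes). The other 4 that did not overlap were RAB5B, RAB10, RAB25 and RAB40C, all higher in knockdown by 0.18 or less.

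Most Rab transcripts, like most genes, differed little between the groups. The log2 fold change was within 0.2 of 0 for 48 of the 58, beside 14624 of all 19775 genes. Of the 38 Rabs at or above the median gene, the 95% interval lay inside a 2-fold change for 37. It lay inside a 1.5-fold change, in either direction, for 33. Of all 9888 genes as bright, these numbers were 9848 and 8822. For the dimmer 20 Rabs the offset compresses the interval, which then sets no such bound. The median over the 58 was -0.034, beside 0.0030 over all genes. There were 36 Rabs below 0 and 22 above (62.1% below), where 49.2% of all genes were below 0. Centring each array on its median moved this to 43 of 58 below 0, with 57.9% of all genes below 0, and leaving out control replicate 3 moved it to 30 of 58. Of the 58, 38 were at or above the median gene, a log2 value of 8.09, and 20 were dimmer. Of the 38, RASEF and RAB35 had an unadjusted p under 0.05, against 5.42% of all genes as bright, and 6 had groups that did not overlap, against 15.4%.

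**Figure D1:**
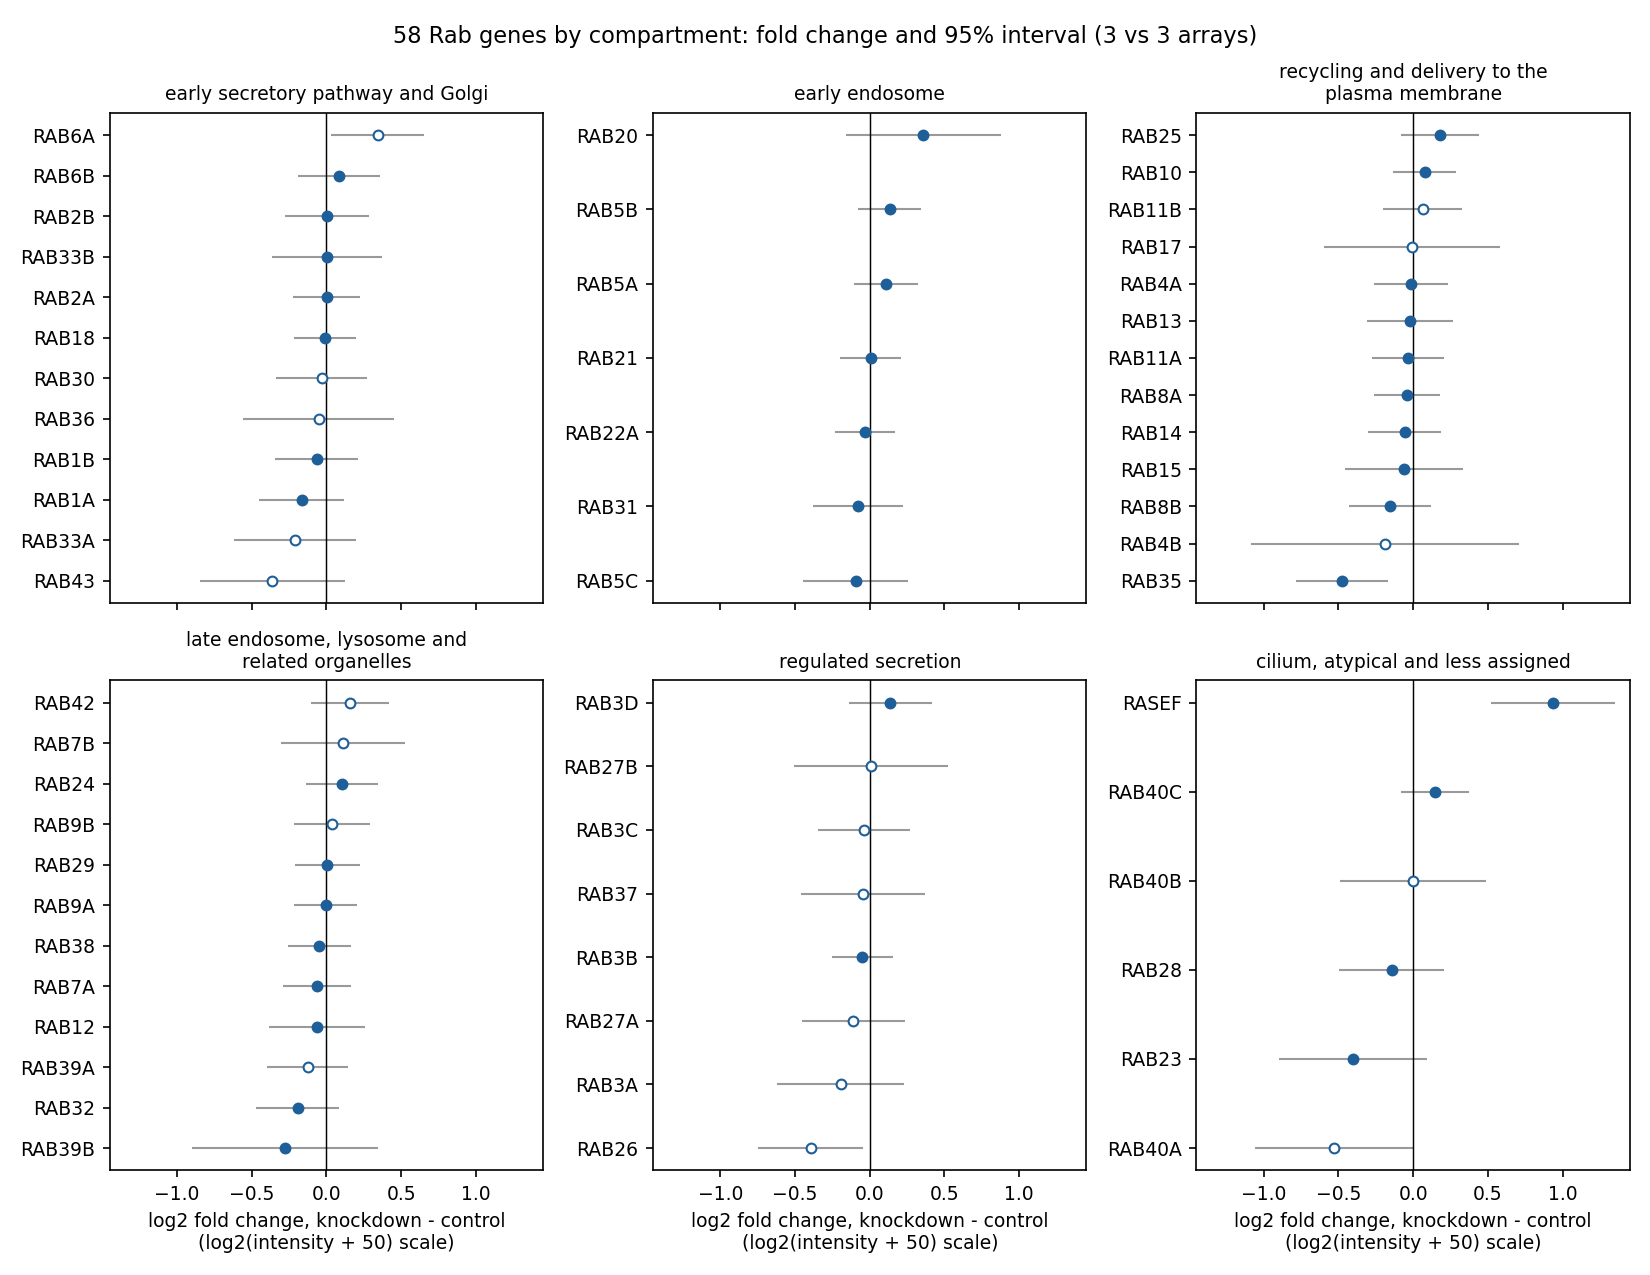
Log2 fold change of each of the 58 Rab genes, knockdown minus control, in 6 compartment groups, with the 95% interval from limma (3 against 3 arrays). Filled points are genes at or above the median gene and open points are dimmer genes; RASEF, at 0.94, lies apart from the other 57, which run from -0.53 to 0.36.

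RASEF stood out among the Rabs. It is an unusually long family member that carries EF-hand and coiled-coil regions ahead of its GTPase domain, and it was placed with the cilium, atypical and less assigned Rabs. It read 3965, 4306 and 2711 intensity units on the control arrays and 7119, 6854 and 6807 on the knockdown arrays. Every knockdown array was thus above every control array, the knockdown arrays lay close together and control replicate 3 was the lowest of the 6. The means were 3661 ± 840 and 6927 ± 168 (SD, n = 3 each), a log2 fold change of 0.94 (SE 0.17, 95% interval 0.52 to 1.35, unadjusted p = 0.00106, adjusted p = 0.47 in limma). RASEF was written into the rule with this value already known, so it is not independent support for a change.

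The array carries 5 RASEF probe sets. The second brightest read 2989, 2989 and 2298 in control and 4823, 4585 and 3369 in knockdown, again without overlap, with a log2 fold change of 0.61 (SE 0.18, adjusted p = 0.667 over all probe sets). The platform annotation lists the same RefSeq transcript for these 2 probe sets, so they do not count as separate evidence. The other 3 had means of 60.0, 10.6 and 4.95 intensity units and log2 fold changes of -0.0019, 0.28 and -0.15. The mean over the 5 probe sets gave RASEF a log2 fold change of 0.33 (adjusted p = 0.75). Without knockdown replicate 1 the value was 0.92, and without control replicate 3 it was 0.74.

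**Figure D2:**
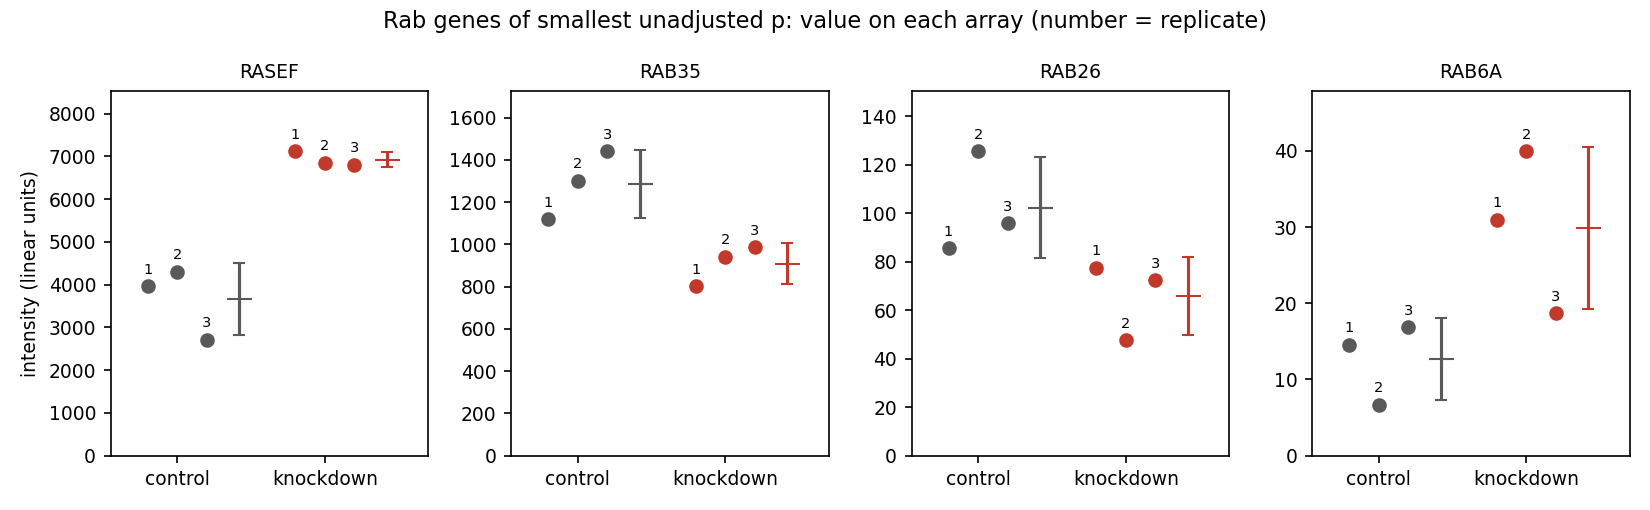
Intensity of the 4 Rab genes with an unadjusted p under 0.05 on each of the 6 arrays (linear units, numbers give the replicate; bars beside the points are mean and SD, n = 3). The groups do not overlap for any of the 4, and RAB26 and RAB6A are far dimmer than RASEF and RAB35.

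The remaining members of that group were RAB23, a regulator of Hedgehog signalling at the primary cilium, RAB28, which acts at the base of the cilium, and the RAB40 genes, whose products carry a SOCS box and join ubiquitin ligases. RAB40C read 1029, 972.0 and 1130 in control and 1185, 1154 and 1140 in knockdown. The highest control and lowest knockdown arrays were close together, with a log2 fold change of 0.15 (SE 0.096, adjusted p = 0.817). RAB40A, which had the smallest p below 0 in the group, read 38.9, 52.7 and 4.93 in control and 7.29, 4.14 and 3.98 in knockdown. Control replicate 3 was as low as the knockdown arrays, so the groups overlapped, and the log2 fold change of -0.53 (SE 0.22, adjusted p = 0.745) rested on signals near or below the offset of 50. Without the offset it was -2.13, and leaving out 1 array gave -0.79 (control replicate 3) to -0.34 (control replicate 2).

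RAB28 gave opposite signs on its 2 brightest probe sets. The brightest read 5649, 5966 and 5934 in control and 4228, 6040 and 5780 in knockdown, with knockdown replicate 1 the lowest of the 6 (log2 fold change -0.14, SE 0.15, adjusted p = 0.88, or 0.015 without knockdown replicate 1). The second read 1634, 1535 and 1182 in control and 2043, 1969 and 1958 in knockdown. All its knockdown arrays were above its control arrays, with control replicate 3 again the lowest, and its log2 fold change was 0.46 (SE 0.14, unadjusted p = 0.0128, adjusted p = 0.671 over all probe sets). The third read 616.7, 523.5 and 419.2 in control and 361.3, 532.4 and 519.6 in knockdown, with overlapping groups, knockdown replicate 1 again the lowest of the 6 and a log2 fold change of -0.13. RAB28 was singled out after its values were seen.

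RAB23 and RAB39B were also singled out after their values were seen, because knockdown replicate 1 moved their fold change. RAB23 read 2258, 2229 and 2678 in control and 1288, 2297 and 1937 in knockdown, a log2 fold change of -0.40 (SE 0.21, adjusted p = 0.787) that was -0.17 without knockdown replicate 1. Its second probe set read between 696.1 and 852.2 on all 6 arrays, with a log2 fold change of 0.0079, and showed no low value on knockdown replicate 1. RAB39B, a Rab of neurons that is tied to autophagy, read 1030, 985.3 and 1048 in control and 510.4, 1038 and 1082 in knockdown. Its log2 fold change was -0.28 (SE 0.26, adjusted p = 0.872) and 0.052 without knockdown replicate 1. The second RAB39B probe set read 458.7, 454.6 and 384.2 against 487.5, 507.6 and 473.5, so that the knockdown arrays were all higher there (0.16, adjusted p = 0.831 over all probe sets).

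**Figure D3:**
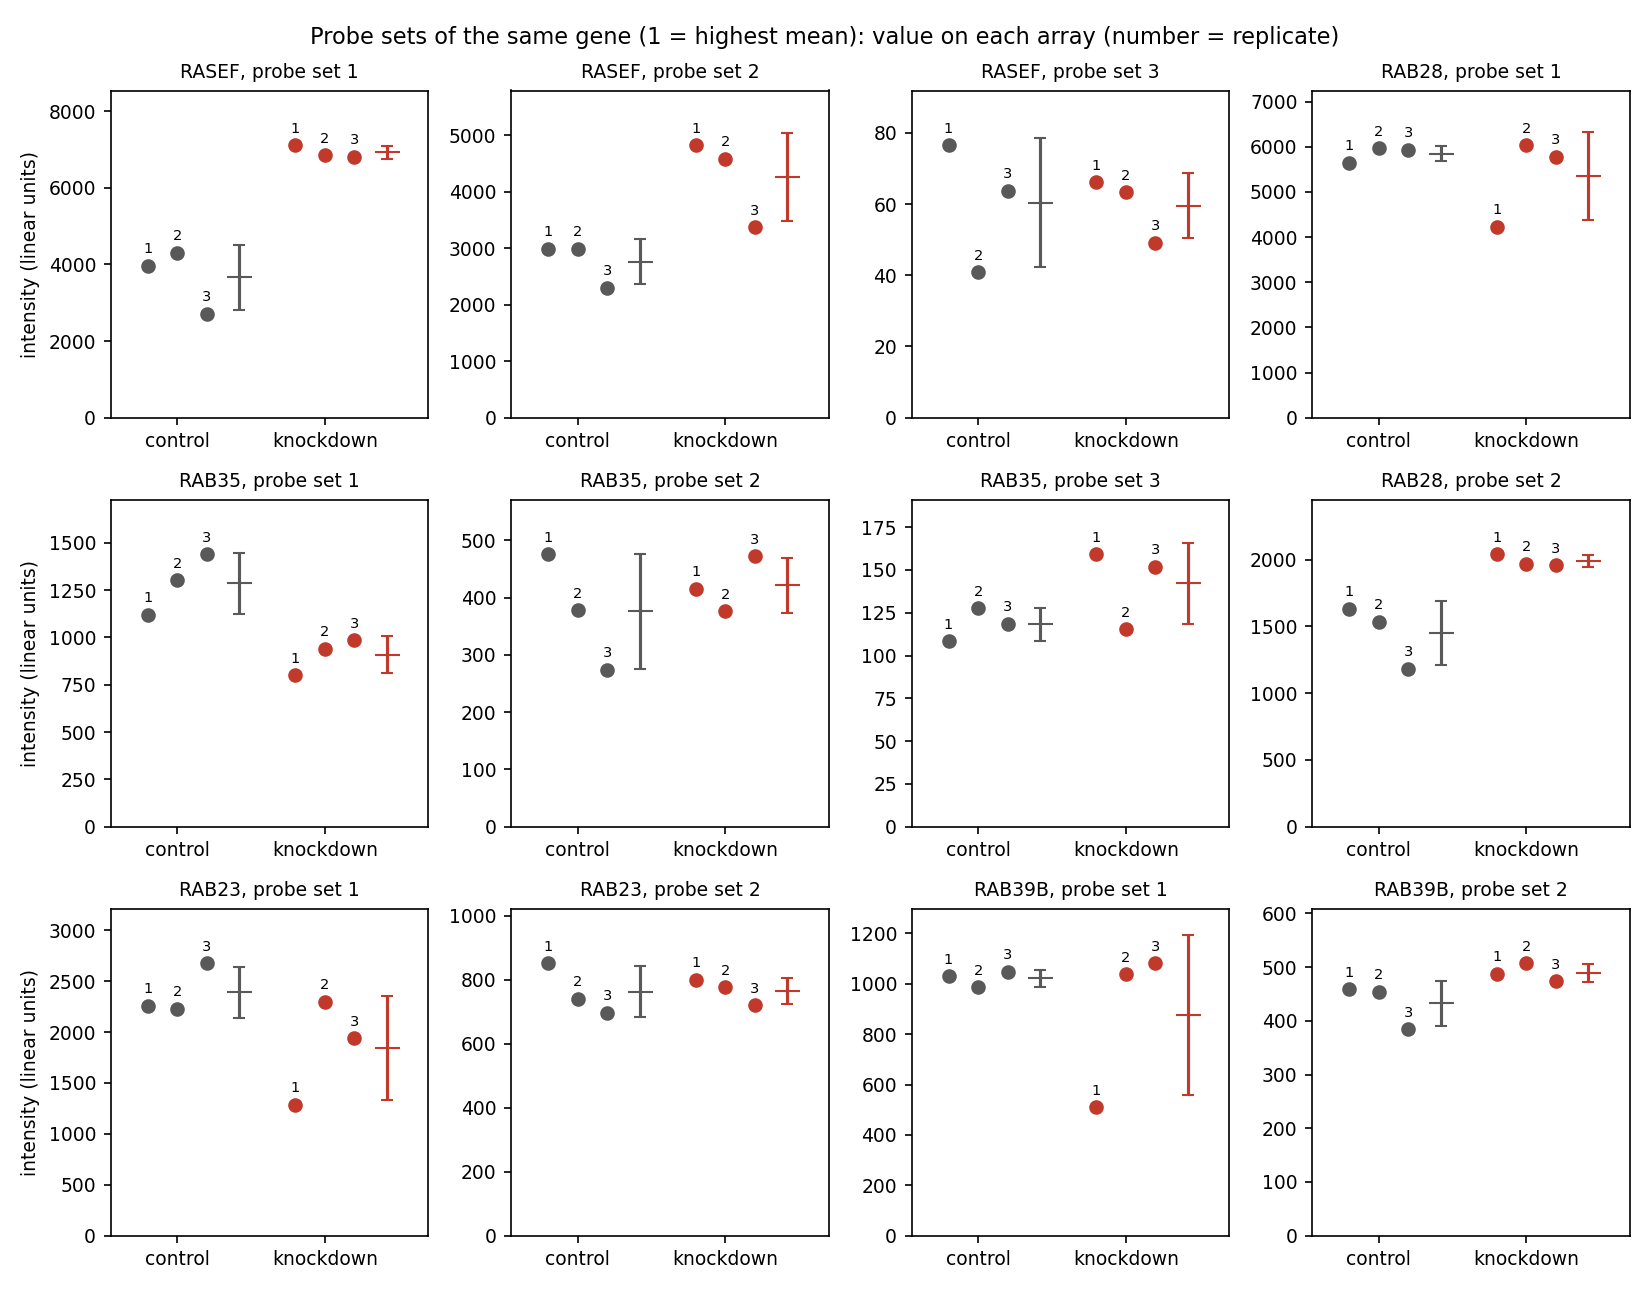
Intensity on each array (linear units, numbers give the replicate; bars are mean and SD, n = 3) for several probe sets of RASEF, RAB28, RAB35, RAB23 and RAB39B, numbered by falling mean. RAB35 is lower in knockdown on its brightest probe set only, and the low value of knockdown replicate 1 for RAB23, RAB28 and RAB39B is on their brightest probe set and not on the second one.

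The Rabs of recycling and of delivery to the plasma membrane numbered 13. Of these 10 lay below 0 (49.2% of all genes) and 3 above, and 1 had an unadjusted p under 0.05 (6.66% of all genes). That gene was RAB35, which works in fast recycling from endosomes to the cell surface and in cytokinesis. It read 1118, 1302 and 1440 in control and 800.7, 940.8 and 985.4 in knockdown. All 3 knockdown arrays were below the lowest control array, and the means were 1287 ± 161 and 909.0 ± 96.4 (SD, n = 3 each; log2 fold change -0.48, SE 0.13, 95% interval -0.79 to -0.17, unadjusted p = 0.00822, adjusted p = 0.623 in limma). Its other 2 probe sets did not repeat this. One read 476.0, 377.6 and 273.9 against 415.1, 375.9 and 472.1 (0.17), the other 108.4, 127.7 and 118.4 against 159.3, 115.4 and 151.9 (0.19), and the mean of the 3 gave -0.041 (adjusted p = 0.952).

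RAB25, an epithelial relative of RAB11 that acts in apical recycling, read 253.7, 315.5 and 308.4 in control and 315.6, 341.8 and 353.2 in knockdown. Its highest control array and lowest knockdown array were nearly equal, and the log2 fold change was 0.18 (SE 0.11, adjusted p = 0.812), or 0.095 without control replicate 1. RAB11A, the main Rab of the recycling endosome, read 7551, 8454 and 8678 in control and 8602, 7692 and 7785 in knockdown. The groups overlapped fully, and the 95% interval of its log2 fold change of -0.035 ran from -0.28 to 0.21. RAB10, which brings vesicles to the plasma membrane in polarised and insulin-responsive cells, read 7914, 8497 and 8310 against 8538, 9015 and 8536, without overlap, for a log2 fold change of 0.077 (SE 0.089, adjusted p = 0.89). A second RAB10 probe set, whose knockdown arrays were all lower, gave -0.22 (adjusted p = 0.81 over all probe sets). The remaining 9 of this group, RAB4A, RAB4B, RAB8A, RAB8B, RAB11B, RAB13, RAB14, RAB15 and RAB17, overlapped between groups and lay between -0.19 and 0.063. RAB4B could be read only from a dim probe set of mean 58.7, because its other probe sets also name another gene.

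Among the 12 Rabs of late endosomes, lysosomes and related organelles, where VAMP7 acts, none had an unadjusted p under 0.05 (6.66% of all genes). None had groups that did not overlap (13.0% of all genes). With 12 genes, counts of 0 do not set this group apart from all genes. There were 7 below 0 and 5 above, from -0.28 for RAB39B to 0.15. RAB7A, which directs fusion of late endosomes and autophagosomes with lysosomes, read 2883, 2730 and 2950 in control and 2946, 2602 and 2654 in knockdown. These ranges overlapped, with a log2 fold change of -0.062 (95% interval -0.29 to 0.16). Its second probe set read 1828, 1802 and 1901 in control against 1637, 1754 and 1673, with all knockdown arrays lower (log2 fold change -0.12, SE 0.092, adjusted p = 0.858 over all probe sets). The other 5 RAB7A probe sets were dim, from -0.37 (groups that did not overlap, unadjusted p = 0.0256, adjusted p = 0.733 over all probe sets in limma) to 0.31 (unadjusted p = 0.0623, adjusted p = 0.77).

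The Rabs tied to VAMP7 through ANKRD27 did not pass the test either. RAB32, which with RAB38 sorts cargo to melanosomes and other lysosome-related organelles, read 625.4, 489.5 and 623.7 in control and 498.4, 503.4 and 490.9 in knockdown. All 3 knockdown arrays were close together, above control replicate 2 and below the other controls (log2 fold change -0.19, SE 0.12, adjusted p = 0.809). Leaving out 1 array gave -0.30 (control replicate 2) to -0.14 (control replicate 1). RAB38 read 993.1, 903.1 and 938.6 against 905.7, 927.7 and 902.8, with overlapping groups and a log2 fold change of -0.048 (95% interval -0.26 to 0.16). RAB21, an early endosomal Rab that binds integrins, read 1680, 1686 and 1622 against 1720, 1648 and 1639, with a log2 fold change of 0.0051 (95% interval -0.20 to 0.21). For these probe sets of RAB21 and RAB38 the intervals lay inside a 1.5-fold change in either direction, given the scatter among these samples. ANKRD27 itself read 1227, 1229 and 1442 in control and 1300, 1214 and 1395 in knockdown (0.0058, adjusted p = 0.997).

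RAB29, a Rab of the Golgi and of stressed lysosomes that recruits the kinase LRRK2, read 2215, 2062 and 2326 in control and 2249, 2166 and 2201 in knockdown. The knockdown arrays lay inside the control range (0.0040, SE 0.092, adjusted p = 0.997, with a 95% interval from -0.21 to 0.22). RAB42 had the smallest p above 0 in the group. It read 165.2, 135.3 and 181.3 against 187.7, 184.9 and 178.1, with control replicate 3 inside the knockdown range (0.15, SE 0.11, adjusted p = 0.835, or 0.066 without control replicate 2). RAB9A, which takes part in the return of mannose 6-phosphate receptors from late endosomes to the Golgi, RAB9B, RAB12, RAB24, RAB39A and RAB7B made up the rest, between -0.12 and 0.11.

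In the early endosome group of 7 genes, 4 lay above 0 and 3 below, and none had an unadjusted p under 0.05 (6.66% of all genes). All 7 were at or above the median gene. The 3 RAB5 paralogs set up the early endosome by recruiting tethers and a phosphoinositide kinase. On their brightest probe sets they did not share a direction. RAB5B read 1161, 1119 and 1137 in control and 1321, 1194 and 1251 in knockdown, without overlap (0.13, SE 0.089, adjusted p = 0.826). RAB5A read 6617, 7028 and 6721 against 7676, 6928 and 7375, with knockdown replicate 2 inside the control range (0.11, SE 0.091, adjusted p = 0.857). RAB5C lay at -0.093, with knockdown replicate 1 the lowest and knockdown replicate 2 the highest of the 6 arrays, and at 0.049 without knockdown replicate 1. Its second probe set, of mean 827.2, lay above 0 with overlapping groups (0.087, adjusted p = 0.919 over all probe sets).

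RAB20, a Rab of phagosome maturation that responds to hypoxia, had the largest log2 fold change in the early endosome group, 0.36 (SE 0.22, adjusted p = 0.812). It read 209.7, 150.2 and 264.2 in control and 371.6, 249.1 and 223.2 in knockdown. Knockdown replicate 1 was the highest of the 6 arrays and control replicate 2 the lowest, and the value was 0.17 without the first and 0.19 without the second. RAB31, which acts between the trans-Golgi network and endosomes, had the smallest p below 0, with 2243, 1828 and 2227 against 2222, 1815 and 1902 (-0.082, SE 0.13, adjusted p = 0.926). Its other 2 probe sets also lay below 0. RAB22A read between 707.9 and 753.1 on all 6 arrays.

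Of the 12 Rabs of the early secretory pathway and the Golgi, 7 lay below 0 and 5 above. RAB6A, the main Rab of retrograde traffic at the Golgi, could be read only from a probe set far below the median gene, because its other probe sets also name RAB6D, and 1 of them RAB6C. On it RAB6A read 14.5, 6.70 and 16.9 in control and 31.0, 39.9 and 18.7 in knockdown. The groups did not overlap, but control replicate 3 and knockdown replicate 3 were close and all 6 values were below the offset of 50 (log2 fold change 0.34, SE 0.13, unadjusted p = 0.0344, adjusted p = 0.728, or 1.27 without the offset). RAB43, which acts in traffic from the endoplasmic reticulum to the Golgi, was also read from 1 dim probe set, because another one names ISY1-RAB43 too. It read 78.4, 111.9 and 68.4 against 72.9, 28.9 and 69.4. The groups overlapped, knockdown replicate 2 was the lowest, and the log2 fold change was -0.36 (SE 0.20, adjusted p = 0.803), or -0.16 without that array.

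RAB1A, which is needed for transport from the endoplasmic reticulum to the Golgi, read 16249, 19555 and 17813 in control and 14101, 17154 and 16534 in knockdown. Its ranges overlapped and knockdown replicate 1 was the lowest array (log2 fold change -0.17, SE 0.12, adjusted p = 0.84, or -0.081 without that array). Its paralog RAB1B, together with RAB2A, RAB2B, RAB6B, RAB18, RAB30, RAB33A, RAB33B and RAB36, overlapped between the groups and lay between -0.21 and 0.086. The second RAB30 probe set read 155.9, 155.6 and 148.4 in control and 109.8, 116.0 and 129.9 in knockdown. Those groups did not overlap (-0.27, unadjusted p = 0.0262, adjusted p = 0.733 over all probe sets), while the RAB30 probe set of highest mean gave -0.032, or 0.029 without knockdown replicate 1.

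Rabs of regulated secretion, most of them known from neurons, endocrine cells and cells with secretory granules, were largely dim in these arrays. Of the 8, 6 were below the median gene, and RAB3B and RAB3D were the exceptions. There were 6 below 0 (49.2% of all genes) and 2 above. RAB26, a Rab of secretory granules and synaptic vesicles, read 85.5, 125.5 and 95.9 in control and 77.4, 47.7 and 72.4 in knockdown. Its groups did not overlap (102.3 ± 20.8 and 65.8 ± 15.9, SD, n = 3 each; log2 fold change -0.40, SE 0.15, unadjusted p = 0.0325, adjusted p = 0.728 in limma). Its second probe set, of mean 63.2, read 77.1, 33.5 and 77.0 against 73.0, 42.9 and 75.4, with full overlap (0.030).

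The RAB3 paralogs, Rabs of synaptic and secretory vesicles, lay between -0.20 and 0.14. RAB3D, the one of smallest p above 0, read 374.5, 290.9 and 358.3 in control and 407.6, 366.4 and 361.8 in knockdown, with control replicate 1 inside the knockdown range (0.14, SE 0.12, adjusted p = 0.858, or 0.040 without control replicate 2). Its second, dim probe set read 98.4, 88.1 and 54.0 against 65.5, 38.7 and 9.27 and gave -0.60 (SE 0.26, adjusted p = 0.761 over all probe sets). RAB27A, which docks melanosomes, lytic granules and exosome-bearing endosomes, was measured by 5 probe sets that ranged from -0.17 to 0.39. The one at 0.39 read 95.5, 89.9 and 85.9 in control and 135.8, 143.8 and 124.0 in knockdown, without overlap (SE 0.097, unadjusted p = 0.00485, adjusted p = 0.63 over all probe sets), whereas the one of highest mean gave -0.11, or 0.035 without knockdown replicate 1. RAB27B, RAB3A, RAB3C and RAB37 all overlapped between groups.

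Taking the 143 Rab probe sets one by one, 9 had an unadjusted p under 0.05, beside 6.60% of all probe sets that name 1 gene. There were 5 higher (3.91% of all) and 4 lower (2.69% of all), and 0 passed the adjusted threshold in limma (0.00243% of all). Groups did not overlap for 18 (12.5% of all), 11 of them higher (7.03% of all) and 7 lower (5.47% of all). Below 0 lay 84 of the 143, beside 47.2% of all. The 9 were the 2 of RASEF and 1 each of RAB6A, RAB7A, RAB26, RAB27A, RAB28, RAB30 and RAB35. Of the 36 Rab genes with more than 1 probe set, 10 had all their probe sets on the same side of 0 (3 above, 7 below) and 26 were mixed. A single sign was thus found for 27.8% of these Rab genes, beside 36.3% of all such genes. Among the probe sets at or above the median gene, 11 of 23 Rab genes had a single sign, beside 51.8% of all genes. A single sign is less likely for a gene with more probe sets, and that number was not matched in these shares. The 7 below 0 throughout were RAB8B, RAB11A, RAB14, RAB15, RAB22A, RAB31 and RAB32, and the 3 above were RAB6B, RAB7B and RAB40C.

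**Figure D4:**
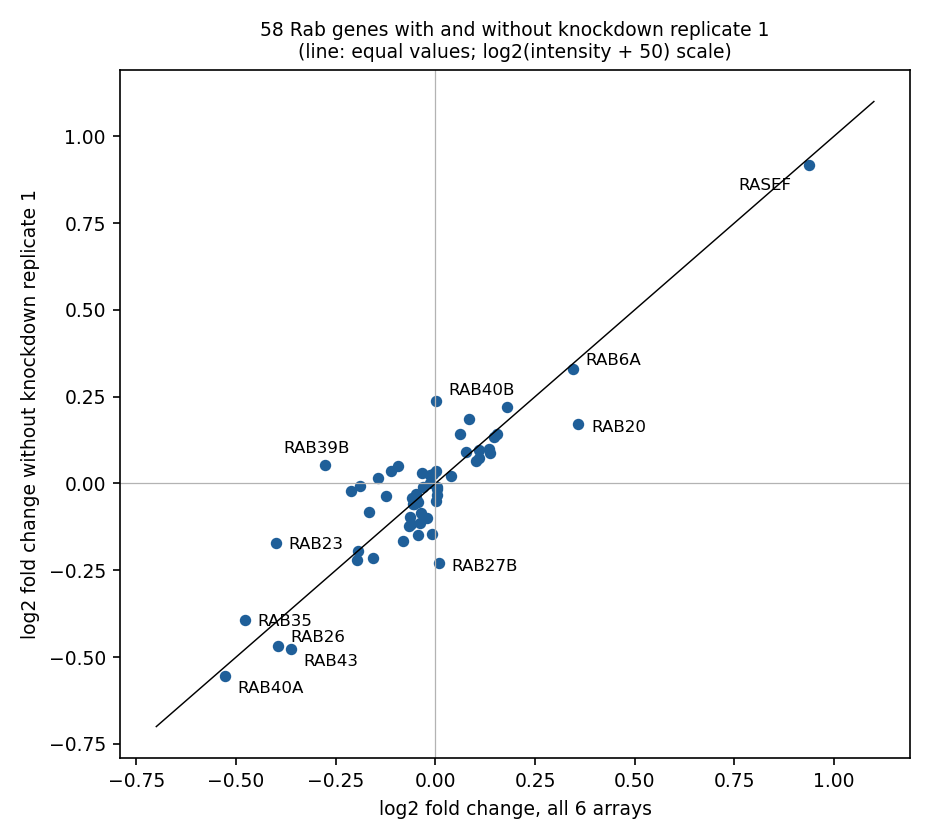
Log2 fold change of the 58 Rab genes with all 6 arrays (horizontal) and without knockdown replicate 1 (vertical); the line marks equal values. RASEF (0.94 and 0.92) and RAB35 (-0.48 and -0.39) lie near the line, while RAB39B, RAB23, RAB20, RAB40B and RAB27B lie away from it.

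Knockdown replicate 1 was the lowest of the 6 arrays for 15 of the 58 Rabs and the highest for 13. Over all genes it was the lowest for 20.4% and the highest for 26.7%. Leaving it out turned the sign of 13 Rabs, left 33 of 58 below 0, and left 3 with an unadjusted p under 0.05, none of them past the adjusted threshold. Without it RAB40B moved from 0.00039 to 0.24 and RAB27B from 0.0099 to -0.23, both on dim probe sets. Control replicate 2 was the lowest array for 16 Rabs, against 17.7% of all genes. Control replicate 3 was the highest for 15, against 16.4% of all genes. Without control replicate 2, 40 of the 58 lay below 0.

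Genes that act on Rabs were read in the same way. Of 141 listed regulators and effectors, 134 were measured, 80 above 0 and 54 below (40.3% below, beside 49.2% of all genes), and none passed the adjusted threshold. Median centring gave 67 of the 134 below 0, beside 57.9% of all genes. An unadjusted p under 0.05 was reached by 9 (7 higher, 2 lower), beside 6.66% of all genes. The medians were 0.040 for the 43 exchange factors, 0.033 for the 37 GTPase activating proteins, -0.018 for the 5 prenylation and recycling factors and 0.033 for the 49 effectors, beside 0.0030 over all genes. With array medians aligned, the median of all genes itself moved to -0.032.

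**Figure D5:**
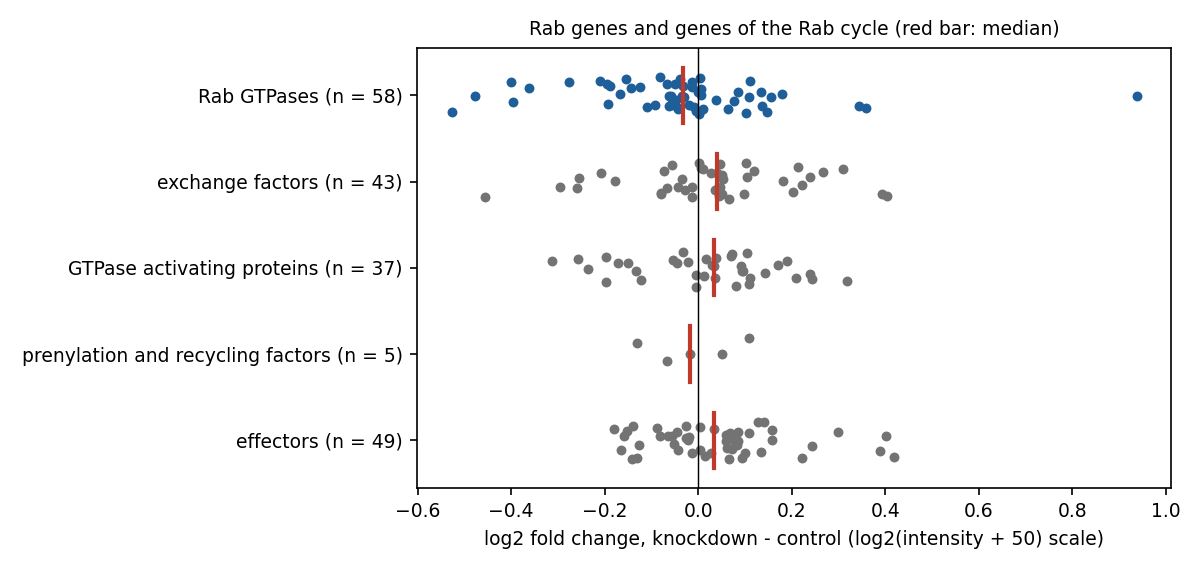
Log2 fold change, knockdown minus control, of the 58 Rab genes and of 4 lists of genes that act on Rabs (points are genes, red bars medians, vertical scatter has no meaning). All 5 medians lie within 0.04 of 0 and RASEF, at 0.94, is the point farthest from 0.

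Among exchange factors the smallest p values were those of DENND2C, a DENN domain protein, and RAB3GAP2, a subunit of the RAB18 exchange factor. DENND2C read 167.4, 223.6 and 195.7 in control and 122.3, 121.9 and 140.8 in knockdown, without overlap (-0.46, SE 0.12, adjusted p = 0.607). RAB3GAP2 read 4.06, 1.99 and 2.14 against 22.04, 11.4 and 25.1 (0.39, SE 0.11, adjusted p = 0.623), with all 6 values below the offset. TBC1D7, a TBC domain protein of the tuberous sclerosis complex, read 1531, 1357 and 1524 against 1273, 1223 and 1223 (-0.24, SE 0.094, adjusted p = 0.738). TBC1D21, a testis-enriched TBC protein, read 19.0, 38.2 and 28.8 against 47.2, 51.5 and 44.2 (0.32, adjusted p = 0.726). Its mean of 38.2 was also below the offset. In the prenylation and recycling list RABGGTA, the alpha subunit of Rab geranylgeranyl transferase, was at 0.11 (adjusted p = 0.886) and RABAC1, a prenylated Rab acceptor, at -0.13 (adjusted p = 0.846).

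MICALL2, an effector of RAB13 at cell junctions, had the smallest p among the effectors, with 160.7, 157.3 and 146.0 in control and 182.8, 251.8 and 240.7 in knockdown. The groups did not overlap, and the log2 fold change was 0.42 (SE 0.12, unadjusted p = 0.0117, adjusted p = 0.64). APPL1, an effector of RAB5 on signalling endosomes, had the smallest p below 0, with 1193, 1200 and 1194 against 1126, 1054 and 1019 (-0.16, SE 0.089, adjusted p = 0.799). Every knockdown array was below every control array.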

How the data were processed

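Intensities of 54675 probe sets on 6 arrays were used as deposited. The deposited intensity values are linear, with a trimmed mean of 500.1 on every array after 2% was left out at each end. The submitters' processing notes name RMA, which gives log2 values and so does not describe them, and the software behind the values is not given in the sources used here. An offset of 50 was added before log2. Gene names came from the platform annotation, with symbols updated through gene identifiers (41037 of 41091 matched). The probe set of highest mean log2 value stood for its gene, without a filter on dim genes. limma 3.58.1 (R 4.3.3; lmFit, eBayes) compared the groups over 19775 genes, and over 41091 probe sets for values of single probe sets, with Benjamini-Hochberg adjustment. An exact permutation test of 3 against 3 cannot go below 0.1 and was not used. Detection calls played no part, and precision is limited by the small number of arrays. The code was checked on simulated data.

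The members, compartment groups and lists of regulators were chosen with earlier results of these data known. The genes given in full were RASEF, RAB29, RAB21, RAB32, RAB38, the member of smallest unadjusted p on each side of 0 in each group or list, and members with groups that did not overlap and an unadjusted p under 0.05. The other members named with values were chosen for their place in the family, for groups that did not overlap or, as stated, after their values were seen. Alternatives were the removal of dim genes, each probe set alone or averaged by gene, quantile normalization or median centring, an intensity trend, robust estimation, array weights, offsets of 0, 16 and 100, a replicate block, and leaving out each array in turn.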

Additional observations from a re-analysis of the deposited data

How the results depend on the processing

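No Rab gene, and no Rab regulator or effector, passed the adjusted threshold in any alternative run. RASEF stayed above 0 in each, from 0.33 with the mean of its probe sets to 1.07, with adjusted p from 0.0892 to 0.773. Leaving out 1 array gave 0.74 to 1.07. The smallest of these p values came from a fit with an intensity trend that kept only genes as bright as the median gene or brighter, a setting added after the data had been seen. VAMP7 stayed between -4.10 and -3.42 and past the threshold in every alternative. The genes called over the whole table numbered 1, or 2 with probe sets averaged by gene and with an offset of 0 or 16, and 3 with the added trend setting.

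The Rabs with an unadjusted p under 0.05, 4 in all, became 2 among genes at or above the median gene and 9 when every probe set was tested on its own. Among Rab probe sets the 9 became 4 when those below the median gene were left out. The Rabs below 0 were 23 of 38 at or above the median gene, with or without the trend, and 84 of 143 probe sets. The regulators and effectors below 0, 54, became 161 with every probe set on its own. These shifts accompany a change in the number of genes or probe sets tested. With the same 58 genes, leaving out 1 array gave 30 (without control replicate 3) to 40 (without control replicate 2) below 0, and the cause was not tested.

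Of the 58 Rabs, 27 kept their sign in all of the 18 alternative gene fits that measured them. Among the genes named with a fold change, RAB29 and RAB21, both near 0, turned to -0.016 and -0.095 with the mean of their probe sets, -0.031 and -0.030 with median centring and -0.0041 and -0.0082 with array weights. Leaving out 1 array gave RAB29 values from -0.041 to 0.044, RAB21 from -0.016 to 0.018, RAB28 from -0.24 to 0.015, RAB39B from -0.46 to 0.052, RAB11A from -0.095 to 0.0047, RAB5C from -0.23 to 0.049, RAB27A from -0.19 to 0.035 and RAB30 from -0.13 to 0.029. Averaging probe sets by gene turned RAB3D to -0.23, RAB10 to -0.073 and RAB27A to 0.025. RAB11A turned to 0.0056 with quantile normalization. The array whose omission turned the sign was knockdown replicate 1 for RAB28, RAB39B, RAB5C and RAB27A, control replicate 3 for RAB11A, and any of control replicates 1 and 3 and knockdown replicate 1 for RAB30. The cause of these turns was not tested.

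With the replicate number as a block, RASEF kept its log2 fold change of 0.94 with an adjusted p of 0.773, VAMP7 was the gene called, and 3 Rabs had an unadjusted p under 0.05. Samples that share a number did not deviate together (correlations of -0.0055, 0.013 and -0.014 across genes for replicates 1, 2 and 3). For samples of different number the correlations ran from -0.016 to 0.022. With 3 arrays per group these values cannot tell whether samples of the same number shared a culture or a day.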
